A study of Mus musculus with 9 samples.

Results

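The genes that make, remove and sense prostaglandins were followed through the differentiation of 3T3-L1 cells, an established mouse preadipocyte line of fibroblast shape that fills with lipid droplets after hormonal induction. The set comprised 10 genes chosen by name out of 19094 genes listed in the files, and all 10 had enough reads to be tested. They were the phospholipase Pla2g4a, the cyclooxygenases Ptgs1 and Ptgs2, the synthases Ptges, Ptges2, Ptges3, Ptgis and Ptgds, and the receptors Ptgfr and Ptger4.

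RNA-seq was performed on 9 samples of the same cell line, 3 at each stage. Day 0 cells were sampled before induction. Day 4 cells had received induction medium with dexamethasone, IBMX and insulin for 2 days and then maintenance medium with insulin, and day 8 cells had stayed 4 more days in maintenance medium. Nothing in the labels tells whether the 3 samples of a day came from separate cultures, and the methods describe each sample as a mixture of RNA, so p-values measure the spread between these samples, which may be technical. The depth lay between 18216114 and 20452144 expected counts per sample, lowest in day 0 replicate 2, and 3 counts, taken as the detection floor, correspond to 0.147 to 0.165 CPM (counts scaled to a library of fixed size). The early phase is day 4 against day 0, the late phase day 8 against day 4, and the whole process day 8 against day 0. There was no undifferentiated control kept in culture to days 4 or 8, so the effect of the hormones and the time in culture cannot be told apart.

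The samples were labelled adipocytes at every stage, while the extraction text of the labels speaks of dorsal root ganglia, so marker genes were read first. The 10 adipocyte markers summed to between 144.2 and 149.1 FPKM (fragment counts scaled to transcript length and sequencing depth) at day 0, to between 6162 and 8835 FPKM at day 4 and to between 9150 and 9968 FPKM at day 8. All 10 rose in the early phase, and at days 4 and 8 the most abundant was Fabp4, the fatty acid carrier of fat cells. The 8 preadipocyte or fibroblast markers summed to between 7755 and 8111 FPKM at day 0, to between 5841 and 6363 FPKM at day 4 and to between 7581 and 7850 FPKM at day 8. The day 4 sums lay below those of both other days in every sample. Dlk1, the preadipocyte marker Pref-1, fell early from a mean of 827.6 to 180.8 FPKM and rose late to 415.3 FPKM, the signs that Ptger4 also showed. It was the only marker of that list called in either step, and the other 7 stayed within 2-fold in both. Of these, 4 were likewise lowest at day 4 with no overlap, at means for days 0, 4 and 8 of 76.9, 48.1 and 86.0 FPKM for Pdgfrb, 227.2, 160.3 and 211.8 FPKM for Thy1, 1540, 1299 and 2270 FPKM for Col1a1 and 1835, 1476 and 2512 FPKM for Col1a2. Vim had means of 2541, 2054 and 1425 FPKM, Pdgfra of 59.6, 102.1 and 65.7 FPKM and S100a4 of 826.2, 839.0 and 711.9 FPKM. The part of these cells in the Ptger4 result was not tested. Of the 11 sensory neuron markers, 10 stayed under 1 FPKM everywhere, and the summed level was between 2.95 and 3.19 FPKM at day 0, between 0.73 and 0.92 FPKM at day 4 and between 0.82 and 1.11 FPKM at day 8. The markers thus go against neuronal tissue and against calling the day 0 samples adipocytes.

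Prostaglandins are short-lived lipid signals made from arachidonic acid. Cytosolic phospholipase A2 frees the fatty acid from membranes, a cyclooxygenase turns it into prostaglandin H2, and a terminal synthase converts this into prostaglandin E2, D2, F2α or prostacyclin, which leave the cell and act on G protein-coupled receptors of the same or of neighbouring cells. In fat cell biology prostacyclin is known as a signal that favours differentiation, prostaglandin F2α and its receptor FP as an inhibitory pair, and prostaglandin E2 as a brake on lipolysis and, through its receptor EP4, on differentiation.

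In the early phase the phospholipase Pla2g4a and both cyclooxygenases fell, the prostaglandin E synthases Ptges and Ptges2 and the prostaglandin D synthase Ptgds rose, and the receptor Ptger4 fell. A gene is called here at an adjusted p under 0.05 (Benjamini-Hochberg over 13154 genes, edgeR quasi-likelihood test) together with a fold change above 2. By this rule 3 members rose and 4 fell in the early phase, that is 7 of 10, where 17.8% of all tested genes were called (9.77% up and 7.98% down). The members, and the pathway lists used below, were chosen with earlier results of these data known. Their shares therefore cannot serve as a test of the pathway. The median log2 fold change of the 10 genes was 0.01, and that of all tested genes was 0.02. In the late phase 1 member rose and 1 fell against a background of 7.05% (4.24% up and 2.81% down), with a median of 0.20 for the members and -0.01 for all tested genes. Over the whole process 2 rose and 3 fell against 18.0% (10.3% up and 7.70% down), with medians of 0.09 and -0.02. On the adjusted p alone, 69.2% of the tested genes passed early, 45.3% late and 71.0% over the whole process. Ptges3, Ptgis and Ptgfr were called in none of the 3 comparisons. In these bulk samples, fewer cells of a type and less RNA per cell cannot be told apart.

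**Figure D1:**
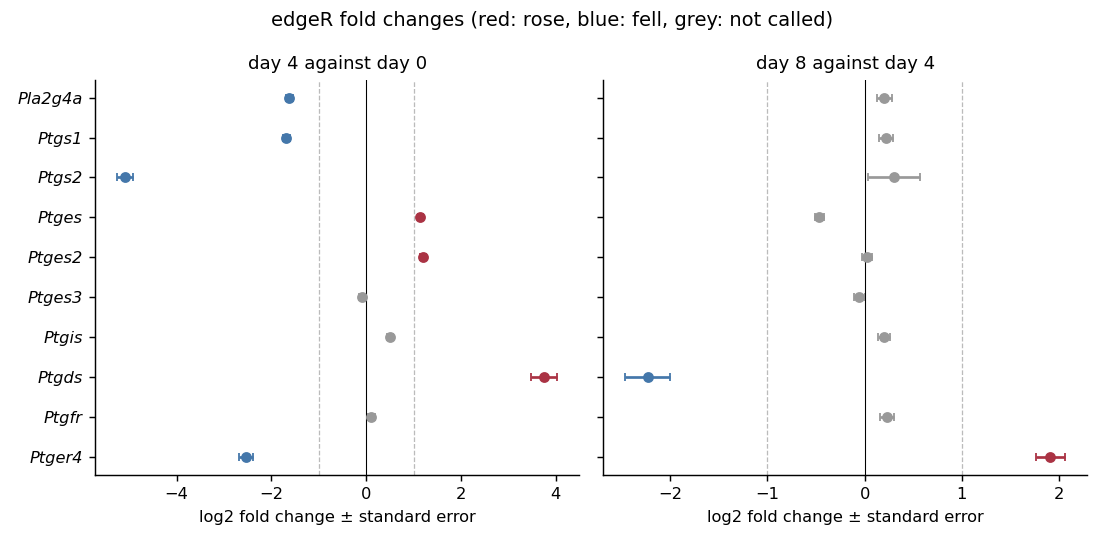
Log2 fold change with its standard error (horizontal axis) of the 10 genes (rows) in the early phase (left) and the late phase (right), from edgeR on 3 samples per day, with dashed lines at a 2-fold change. Ptgs2 lies farthest to the left in the early phase at -5.09, and Ptger4 and Ptgds are the coloured points in the late phase, each with the sign opposite to its early one.

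Pla2g4a encodes cytosolic phospholipase A2, the enzyme that releases arachidonic acid in response to calcium. Its level was 19.73, 20.04 and 20.27 FPKM in the 3 samples of day 0, then 7.02, 5.65 and 5.96 FPKM at day 4 and 6.82, 7.08 and 6.88 FPKM at day 8. Every day 0 sample stood above every later one, and the day 4 and day 8 samples overlapped. The mean went from 20.01 ± 0.271 FPKM (SD, n = 3) to 6.21 ± 0.718 FPKM and 6.93 ± 0.136 FPKM. In edgeR the early log2 fold change was -1.62 with a standard error of 0.07 (adjusted p = 6.6e-12), a 3.08-fold fall, and that of the whole process was -1.42 with a standard error of 0.07 (adjusted p = 2.9e-11). The late difference of 0.20 (edgeR adjusted p = 0.043) was far below the 2-fold limit and was not called.

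Ptgs1 encodes cyclooxygenase 1, which most tissues make at a steady rate. It was the highest of the 10 genes at day 0, with 101.65, 114.08 and 101.38 FPKM. At day 4 the samples had 33.86, 32.87 and 27.33 FPKM, and at day 8 they had 35.9, 35.31 and 35.12 FPKM. The 3 days did not overlap, but days 4 and 8 lay close together compared with the distance of both from day 0. Ptgs1 fell 3.22-fold in the early phase (log2 fold change -1.69, standard error 0.07, edgeR adjusted p = 3.3e-12) and 2.76-fold over the whole process (-1.46, standard error 0.07, adjusted p = 1.6e-11). The late log2 difference was 0.22 (edgeR adjusted p = 0.018), not called.

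Ptgs2 encodes cyclooxygenase 2, the inducible enzyme that growth factors and inflammatory signals switch on. The 3 samples of day 0 had 12.53, 18.66 and 16.02 FPKM, from 1151, 1528 and 1473 expected counts. At day 4 there were 0.54, 0.34 and 0.44 FPKM, from 49, 31 and 39 counts, and at day 8 there were 0.58, 0.51 and 0.48 FPKM, from 53, 46 and 43 counts. Every day 0 sample stood far above all later ones, whereas days 4 and 8 overlapped. Ptgs2 fell 34.1-fold early (edgeR log2 fold change -5.09, standard error 0.16, adjusted p = 1.4e-13) and 27.7-fold over the whole process (-4.79, standard error 0.16, adjusted p = 2.1e-13). The late difference was 0.30 (standard error 0.27, edgeR adjusted p = 0.38). Since the later levels were under 1 FPKM, the size of the early change depended on the scale, and limma on log2(FPKM + 1) gave -3.52.

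Both cyclooxygenase genes fell early, to very different degrees. Their upstream sequences are shown here side by side as a description, and any part of the sequences in these falls was not tested. They are the 250 bases before the transcript start given in the RefSeq promoter table (GRCm38.p6, plus strand, chr1:150099781-150100030 for Ptgs2 and chr2:36230176-36230425 for Ptgs1). The Ptgs1 gene has an annotated span from 36216742 to 36258593, so its stretch lies inside the gene, before a start within that span. Capitals mark the palindrome TTGCGCAA, a form of the site bound by C/EBP factors.
Ptgs2: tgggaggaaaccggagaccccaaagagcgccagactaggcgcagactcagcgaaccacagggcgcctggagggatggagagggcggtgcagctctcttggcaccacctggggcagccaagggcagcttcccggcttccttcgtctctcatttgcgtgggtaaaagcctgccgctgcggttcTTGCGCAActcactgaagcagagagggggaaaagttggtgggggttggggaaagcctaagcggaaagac
Ptgs1: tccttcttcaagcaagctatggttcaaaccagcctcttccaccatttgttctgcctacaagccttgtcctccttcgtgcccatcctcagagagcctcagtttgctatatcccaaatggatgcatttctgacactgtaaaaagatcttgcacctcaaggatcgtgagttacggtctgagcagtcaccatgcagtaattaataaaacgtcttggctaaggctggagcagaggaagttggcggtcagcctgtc

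The palindrome starts 69 bases before the Ptgs2 start of that RefSeq table. The start used in these cells was not determined, so positions before or after it hold for the annotated start only. A second stretch of interest lies just after that start, at chr1:150100037-150100058 on the plus strand, where the core of the cyclic AMP response element (CGTCA) runs into an E-box (CACGTG), the pair being shown in capitals.
Ptgs2 after the start: accactaCGTCACGTGgagtcc

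Several motifs were searched on both strands of windows from 250 bases before to 50 after each start, of which the RefSeq table holds 32851, including those of 9 of the 10 members (all but Ptgis). TTGCGCAA occurs in 0.183% of all windows and, among the members, in that of Ptgs2 alone. CGTCA occurs in 20.8% of all windows and in those of Ptgs2 and Ptges3. CACGTG occurs in 7.15% of all windows and in those of Ptgs2 and Ptges2, overlapping CGTCA in Ptgs2. GGGCGG, the GC box, occurs in 35.7% of all windows and in 5 members (Ptger4, Ptges, Ptges3, Ptgfr and Ptgs2), and TATAAA occurs in 13.6% of all windows and in one start of Pla2g4a. The Ptgs1 window holds none of these letters. Like that of Ptgs1, the windows of Ptges and Ptgds and the Pla2g4a window with TATAAA lie inside the annotated spans of their genes. A match describes the sequence and not a bound site, and no binding was measured.

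Because both cyclooxygenases make the same product, their summed level and their split were computed in each sample. The summed level averaged 121.4 ± 9.92 FPKM before induction, 31.8 ± 3.53 FPKM on day 4 and 36.0 ± 0.458 FPKM on day 8 (SD, n = 3). Ptgs2 supplied 10.97%, 14.06% and 13.65% of it at day 0, then 1.57%, 1.02% and 1.58% at day 4 and 1.59%, 1.42% and 1.35% at day 8. No later sample came near the day 0 range, and days 4 and 8 overlapped. The mean share was 12.9% ± 1.67 before induction, 1.39% ± 0.320 on day 4 and 1.45% ± 0.124 on day 8 (SD, n = 3). From expected counts, which are not scaled to transcript length, it was 18.7%, 2.15% and 2.25%. An exact permutation test gave a two-sided p of 0.1 for the early phase and for the whole process, the smallest that 3 against 3 samples allow, and 0.8 for the late phase.

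**Figure D2:**
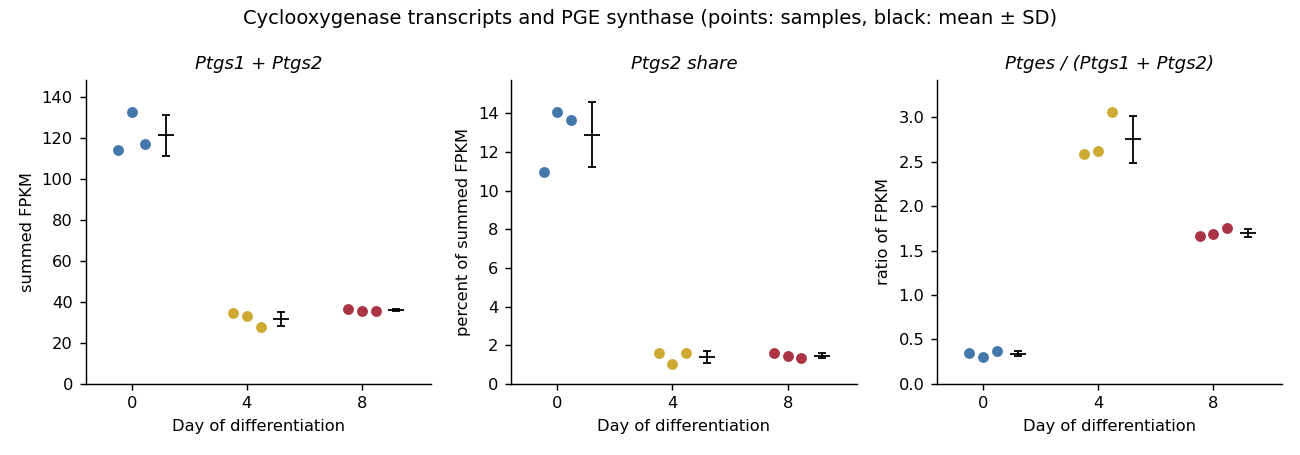
Summed FPKM of Ptgs1 and Ptgs2 (left), percent of that sum from Ptgs2 (middle) and FPKM of Ptges divided by that sum (right), by day of differentiation, with a point per sample and mean ± SD in black (n = 3). The sum and the Ptgs2 share are high at day 0 only, and the ratio of Ptges to the cyclooxygenases is highest at day 4 with a mean of 2.75.

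Ptges encodes the inducible microsomal prostaglandin E synthase, which commonly works together with cyclooxygenase 2. Here its levels were 39.56, 40.47 and 43.35 FPKM at day 0, rising to 88.8, 87.09 and 84.87 FPKM at day 4, and they were 60.51, 60.39 and 62.32 FPKM at day 8. No sample of one day reached the range of another, day 4 being highest. Ptges rose 2.21-fold in the early phase (log2 fold change 1.15, standard error 0.05, edgeR adjusted p = 4.3e-12). The late value of -0.46 (standard error 0.05, adjusted p = 8.5e-07) and the whole-process value of 0.68 (standard error 0.05, adjusted p = 2.7e-09) passed the edgeR test but stayed within 2-fold. Per unit of cyclooxygenase transcript there was 0.340 ± 0.0326 of Ptges before induction, 2.75 ± 0.263 on day 4 and 1.70 ± 0.0472 on day 8 (ratio of FPKM, SD, n = 3).

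Ptges2, a membrane-associated prostaglandin E synthase that is usually expressed constitutively, had 13.93, 13.86 and 13.32 FPKM at day 0. It had 29.11, 30.95 and 30.04 FPKM at day 4 and 28.97, 30.13 and 30.03 FPKM at day 8. The later days overlapped with each other, and both lay above day 0 in every sample. The early rise was 2.30-fold (log2 fold change 1.20, standard error 0.05, edgeR adjusted p = 1.1e-11), and that of the whole process was 2.34-fold (1.23, adjusted p = 8.4e-12). The late difference was 0.03 (edgeR adjusted p = 0.67), and its sign turned when libraries were scaled by their size alone (-0.02).

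Ptges3 encodes the cytosolic prostaglandin E synthase, better known as p23, a co-chaperone of Hsp90. Its levels were 58, 64.46 and 60.4 FPKM at day 0, then 52.67, 50.2 and 60.42 FPKM at day 4 and 52.11, 50.83 and 49.6 FPKM at day 8. Day 4 overlapped with both other days. The log2 differences were -0.10 early (edgeR adjusted p = 0.16), -0.05 late (adjusted p = 0.51) and -0.15 over the whole process (adjusted p = 0.036), none of them near 2-fold. Of its 50-base stretches 19.6% also occur in transcripts of other genes, so part of its count may be shared. Among the 3 prostaglandin E synthase transcripts Ptges made up 35.5% ± 1.48 before induction, 50.7% ± 2.03 on day 4 and 43.1% ± 0.677 on day 8 (SD, n = 3).

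Ptgis encodes prostacyclin synthase, a cytochrome P450. The samples had 20.08, 21.3 and 21.89 FPKM at day 0, 27.12, 28.48 and 30.04 FPKM at day 4 and 29.64, 32.63 and 32.78 FPKM at day 8. Day 0 was below all later samples, and days 4 and 8 overlapped. The log2 differences were 0.50 early (standard error 0.06, edgeR adjusted p = 2.8e-06), 0.20 late (standard error 0.06, adjusted p = 0.016) and 0.70 over the whole process (standard error 0.06, adjusted p = 4.9e-08). All passed the test on p and none reached 2-fold, so Ptgis was not called.

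Ptgds encodes lipocalin-type prostaglandin D synthase, which also carries retinoids and other lipids. Its level was 0.69, 0.21 and 0.44 FPKM at day 0, from 11, 3 and 7 counts. It was 6.33, 6.08 and 5.52 FPKM at day 4, from 100, 97 and 85 counts, and 0.95, 1.46 and 1.28 FPKM at day 8, from 15, 23 and 20 counts. The gene thus stood out at day 4 in every sample, the day 8 samples lay slightly above those of day 0, and no days overlapped. Ptgds rose 13.6-fold in the early phase (log2 fold change 3.76, standard error 0.28, edgeR adjusted p = 4.1e-09) and fell 4.69-fold in the late phase (-2.23, standard error 0.23, adjusted p = 8.4e-07). Over the whole process it rose 2.90-fold (1.53, standard error 0.36, edgeR adjusted p = 0.0012). The day 0 counts are near the floor, and on log2(FPKM + 1) in limma the early value was 2.28 and that of the whole process 0.63, so the latter call was lost.

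**Figure D3:**
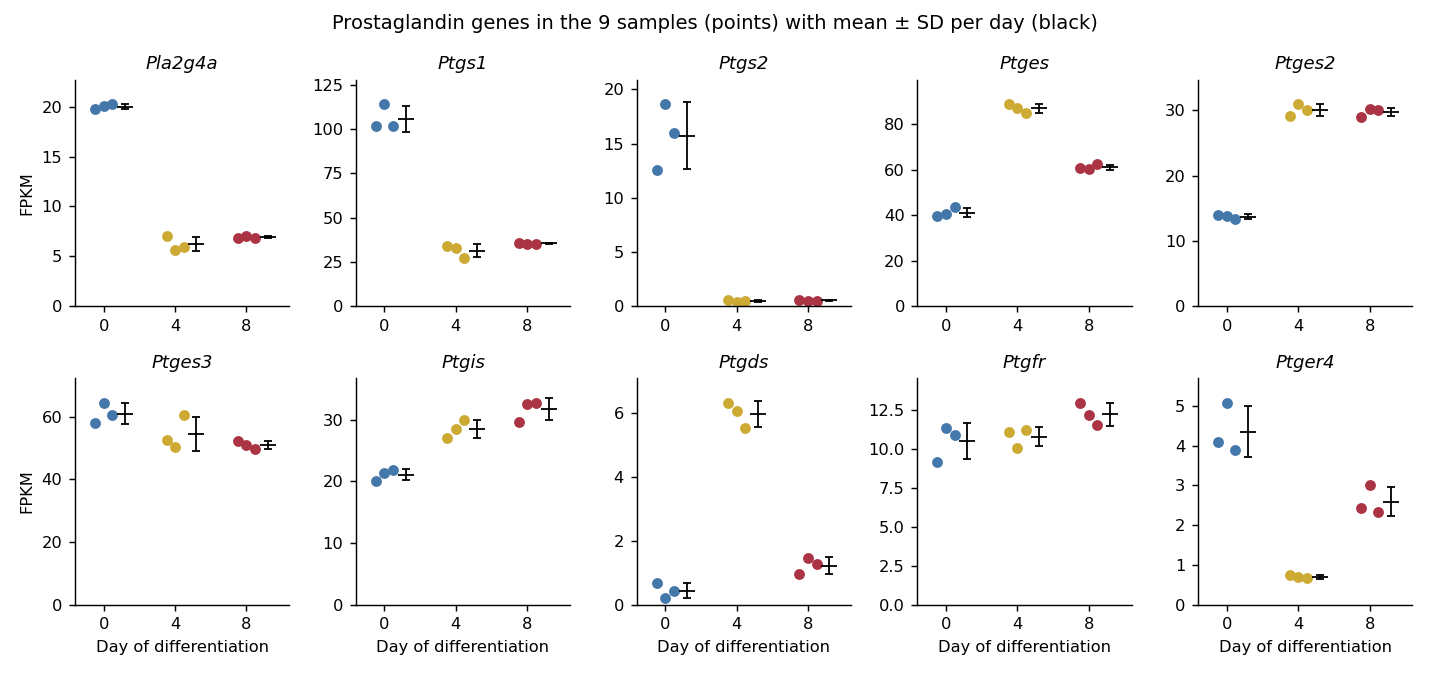
FPKM (vertical axes, each from 0) of the 10 genes by day of differentiation, with a point per sample and mean ± SD in black (n = 3 per day). Pla2g4a, Ptgs1 and Ptgs2 are high at day 0 only, Ptges and Ptgds peak at day 4, Ptges2 reaches about 30 FPKM at day 4 and keeps it, and Ptger4 is lowest at day 4.

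Ptgfr encodes FP, the receptor of prostaglandin F2α, which couples to Gq and calcium. It was measured at 9.15, 11.33 and 10.88 FPKM at day 0, at 11.05, 10.04 and 11.2 FPKM at day 4 and at 12.94, 12.15 and 11.49 FPKM at day 8. Days 0 and 4 overlapped, and all day 8 samples lay above them. The log2 differences were 0.11 early (edgeR adjusted p = 0.19), 0.23 late (adjusted p = 0.018) and 0.34 over the whole process (adjusted p = 0.0006), none of which reached 2-fold.

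Ptger4 encodes EP4, a receptor of prostaglandin E2 that raises cyclic AMP. The level was 4.09, 5.08 and 3.89 FPKM at day 0 (277, 307 and 263 counts), 0.76, 0.69 and 0.67 FPKM at day 4 (51, 47 and 44 counts) and 2.44, 3.0 and 2.34 FPKM at day 8 (163, 200 and 155 counts). Day 4 was lowest, day 8 intermediate and day 0 highest, with no overlap between days. Ptger4 fell 5.82-fold in the early phase (log2 fold change -2.54, standard error 0.15, edgeR adjusted p = 1.8e-10) and rose 3.76-fold in the late phase (1.91, standard error 0.15, adjusted p = 4.8e-08). Over the whole process the value was -0.63 (standard error 0.12, edgeR adjusted p = 0.00019), not called. On log2(FPKM + 1) in limma the early and late values were -1.64 and 1.07. Of its exon bases 16.5% lie opposite another gene, and the strand of the libraries is not stated. Of the summed FPKM of both receptors Ptger4 made up 29.4% before induction, 6.17% on day 4 and 17.5% on day 8.

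The order of the levels, on the FPKM scale, was rearranged between day 0 and day 4. At day 0 it was Ptgs1, Ptges3, Ptges, Ptgis, Pla2g4a, Ptgs2, Ptges2, Ptgfr, Ptger4 and Ptgds from high to low. Ptgis and Pla2g4a overlapped there, and so did Ptgs2 and Ptges2, while other neighbours were apart in all samples. At day 4 the order was Ptges, Ptges3, Ptgs1, Ptges2, Ptgis, Ptgfr, Pla2g4a, Ptgds, Ptger4 and Ptgs2. Ptgs1, Ptges2 and Ptgis were not separated from their neighbours among these 3, nor Pla2g4a from Ptgds. At day 8 Ptges, Ptges3 and Ptgs1 led again, followed by Ptgis and Ptges2, which overlapped, and by Ptgfr, Pla2g4a, Ptger4, Ptgds and Ptgs2. Ptgs2, in the middle of the order at day 0, was last at both later days.

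The other genes of the pathway were taken from 5 lists of 52 genes, of which 49 were listed in the files and 28 had enough reads to be tested. Of these 28, 11 rose and 4 fell early (17.8% of all tested genes called), 3 rose and 3 fell late (7.05%), and 10 rose and 6 fell over the whole process (18.0%). Their median log2 fold changes were 0.42, 0.08 and 0.45. At or under 3 counts in all 9 samples were Pla2g2a, Pla2g4e, Pla2g4f, Pla2g10, Ptger3, Alox5, Alox12b, Alox15, Ltb4r1 and Ltb4r2.

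Among the other phospholipases A2, 5 of 7 tested genes rose and 1 fell in the early phase (9.77% and 7.98% of all tested genes), while Pla2g4a itself fell. Pla2g16, which encodes the adipose phospholipase AdPLA, had 1.85, 1.27 and 1.45 FPKM at day 0, 23.29, 28.11 and 31.69 FPKM at day 4 and 35.09, 39.15 and 37.17 FPKM at day 8. It thus stood below Pla2g4a in every day 0 sample and above it in every later one, and it rose 18.9-fold in the early phase (log2 fold change 4.24, standard error 0.13, edgeR adjusted p = 6.3e-14). The secreted enzyme Pla2g2e had 0.3, 0.13 and 0.24 FPKM at day 0 (5, 2 and 4 counts), 0.6, 0.95 and 1.1 FPKM at day 4 and 12.47, 14.11 and 15.72 FPKM at day 8. Its larger step was the late one, with 4.03 on the log2 scale (standard error 0.20, edgeR adjusted p = 1.3e-10), after 2.001 (standard error 0.42, adjusted p = 0.00048) in the early one, a call that was lost in limma on log2(FPKM + 1), where the early value was 0.62. Pla2g6, Pla2g12a and Pla2g15 rose by 1.15, 1.43 and 1.04 on the log2 scale in the early phase, the last of these being within 2-fold when libraries were scaled by size alone (0.97) or with upper-quartile factors (0.99), without day 0 replicate 2 (0.99), and in limma on log2(FPKM + 1) (0.94) or log2(FPKM + 0.1) (0.97). Pla2g7, the secreted hydrolase of platelet-activating factor, fell from 22.25, 28.58 and 23.26 FPKM to 2.35, 2.62 and 2.04 FPKM at day 4 (log2 fold change -3.33, standard error 0.14, edgeR adjusted p = 3.1e-12). Pla2g4c fell by 2.51 on the log2 scale in the late phase, from 17, 10 and 10 counts to 3, 3 and 0, a call also lost on that scale (-0.20).

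Of the other terminal enzymes, 2 of 6 tested genes rose and 1 fell in the early phase (9.77% and 7.98% of all tested genes). The carbonyl reductases Cbr1 and Cbr3, which can convert prostaglandin E2 to F2α, rose by 1.38 and 1.32 on the log2 scale (edgeR adjusted p = 2.9e-10 and 4.1e-11). Cbr1 went from 21.1 ± 1.94 FPKM to 52.7 ± 4.49 FPKM and 74.2 ± 5.49 FPKM, and Cbr3 from 18.4 ± 1.39 FPKM to 43.8 ± 2.16 FPKM and 70.5 ± 2.93 FPKM (SD, n = 3). Akr1b7, an aldo-keto reductase with prostaglandin F synthase activity, fell by 2.81 on the log2 scale, from 1.83, 1.39 and 1.91 FPKM to 0.22, 0.24 and 0.25 FPKM, with 27.2% of its exon bases opposite another gene. Its more abundant relatives Akr1b3 and Akr1b8 were not called. Their means were higher at day 4 without overlap, from 56.9 to 84.3 FPKM and from 72.3 to 86.2 FPKM. These early log2 differences of 0.64 and 0.32 (edgeR adjusted p = 5.4e-07 and 1.7e-05) stayed within 2-fold. Transcripts of other genes share 9.48% of the 50-base stretches of Akr1b3. The hematopoietic prostaglandin D synthase Hpgds was not tested, being listed at no more than 0.14 FPKM in any sample. Ptgds had the higher FPKM at every day. At day 0 this order rests on few reads, with 11, 3 and 7 counts for Ptgds and 6.37, 8.33 and 2.99 for Hpgds.

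**Figure D4:**
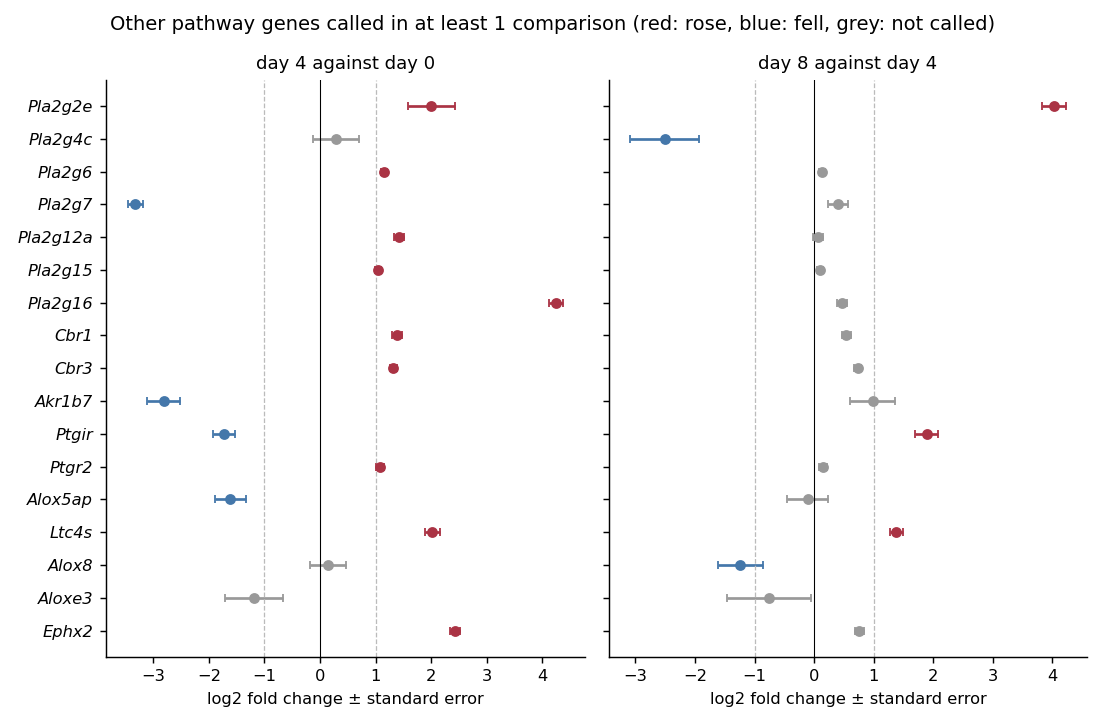
Log2 fold change with its standard error (horizontal axis) of the other pathway genes (rows) called in at least 1 comparison, in the early phase (left) and the late phase (right), from edgeR on 3 samples per day, with dashed lines at a 2-fold change. Pla2g16 has the largest early rise shown and Pla2g2e the largest late one, and Hpgd is left out since its day 0 counts are 0, 0 and 1.

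Among the other prostanoid receptors, 0 of 3 tested genes rose and 1 fell in the early phase (9.77% and 7.98% of all tested genes). The prostacyclin receptor Ptgir, which also raises cyclic AMP, was likewise lowest at day 4. It had 1.65, 1.34 and 1.74 FPKM at day 0, 0.38, 0.56 and 0.42 FPKM at day 4 and 1.41, 1.62 and 1.89 FPKM at day 8. Day 4 was below both other days in every sample, and days 0 and 8 overlapped. Ptgir fell by 1.73 on the log2 scale early (standard error 0.19, edgeR adjusted p = 7.2e-07) and rose by 1.89 late (standard error 0.19, adjusted p = 7.1e-07). On log2(FPKM + 1) in limma these values were -0.82 and 0.86, both within 2-fold. The thromboxane receptor Tbxa2r had 1.72, 1.85 and 1.52 FPKM, then 0.81, 0.93 and 0.96 FPKM, then 1.51, 1.39 and 1.42 FPKM. Its differences of -0.86 and 0.71 stayed within 2-fold. Ptger1, which encodes the prostaglandin E2 receptor EP1, was listed at 18.15, 17.42 and 17.84 FPKM, then 14.34, 14.85 and 15.44 FPKM, then 11.67, 11.74 and 11.38 FPKM. It was lowest at day 8 with no overlap between days, and its log2 differences of -0.19 early and -0.31 late (edgeR adjusted p = 0.0068 and 0.00041) stayed within 2-fold. Its counts are uncertain, as the strand of the libraries is not stated. Ptger2, Ptger3, Ptgdr and Ptgdr2 were too low to be tested.

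Of the genes for breakdown and transport, 2 of 6 tested rose and none fell in the early phase (9.77% and 7.98% of all tested genes). Hpgd, the dehydrogenase that inactivates prostaglandins, was at or near 0 at day 0 (0, 0 and 1 counts), had 20, 29 and 24 counts at day 4 and returned to 2, 3 and 1 counts at day 8. It was called in both directions (edgeR adjusted p = 5.8e-07 early and 1.5e-05 late), at no more than 0.83 FPKM, and in neither on log2(FPKM + 1) in limma, with values of 0.75 and -0.68. Ptgr2, a reductase of the breakdown products, rose by 1.07 on the log2 scale early, from 9.30 ± 0.229 FPKM to 18.7 ± 2.01 FPKM (SD, n = 3), and was within 2-fold without day 4 replicate 3 (0.99) or in limma on log2(FPKM + 1) (0.93) and log2(FPKM + 0.1) (0.99). Of its exon bases 32.0% lie opposite another gene. The reductase Ptgr1, the exporter Abcc4, the importer Slco2a1 and the receptor partner Ptgfrn were not called in any comparison.

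**Figure D5:**
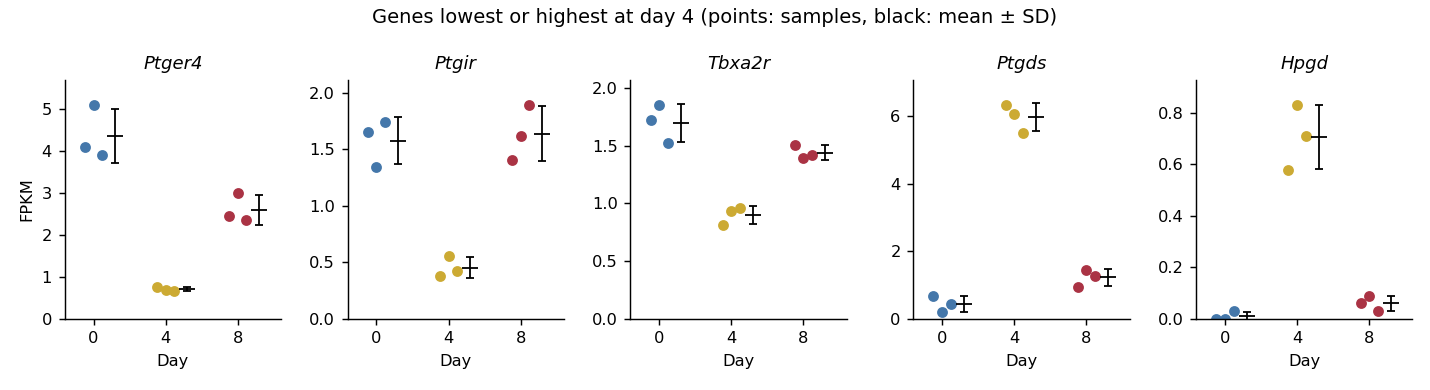
FPKM (vertical axes, each from 0) of 5 genes that were lowest or highest at day 4, by day of differentiation, with a point per sample and mean ± SD in black (n = 3 per day). The receptors Ptger4, Ptgir and Tbxa2r (the last not called) are lowest at day 4, while Ptgds and Hpgd are high at day 4, Hpgd at no more than 0.83 FPKM.

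To see which genes followed the cyclooxygenases most closely, the log2 CPM of each gene were centred on their mean over the 9 samples and compared with those of Ptgs1 and Ptgs2 among 11334 genes with an average of at least 1. The measure is the root mean square difference in log2 units, where 0 would be the same pattern. Parvb, Csf1, Specc1, Pcdh7 and Zc3hav1 were nearest to Ptgs1, at 0.07, 0.09, 0.09, 0.10 and 0.10. The level of Csf1, the macrophage growth factor, averaged 103.9 FPKM before induction, 32.5 FPKM on day 4 and 38.9 FPKM on day 8, nearly that of Ptgs1 itself. Nearest to Ptgs2, though farther away, were Grem1, Ifi44, Oasl2, Ifit1 and Oas2, at 0.32, 0.42, 0.45, 0.61 and 0.62. The level of Grem1, an antagonist of bone morphogenetic proteins, averaged 165.2 FPKM before induction, 7.34 FPKM on day 4 and 5.80 FPKM on day 8. The 9 points of each gene come from 3 stages only.

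Ptgs2 and Pla2g4a are neighbours on mouse chromosome 1 in the RefSeq annotation, with only a pseudogene and the noncoding gene Ptgs2os between them, and both fell early. Ptgs2os had 4, 3 and 3 counts at day 0, 0, 0 and 1 at day 4 and 0 in all samples of day 8. On the other side of Ptgs2, the next counted gene, Ptgs2os2, also listed as Lincrna-cox2 and singled out after its values were seen, had 31, 36 and 21 counts at day 0, 1, 1 and 6 at day 4 and 3, 1 and 3 at day 8. Between days 0 and 4 it fell by 3.37 on the log2 scale, with a standard error of 0.50 and an edgeR adjusted p of 1.9e-05. The size of that fall is uncertain, since it rests on few day 4 counts, most of them from replicate 3. Another 5 members (Ptgs1, Ptges, Ptges2, Ptgis and Ptgds) lie on chromosome 2.

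Cells of other types that make prostaglandins were looked for by their markers. The 7 macrophage markers summed to 4.91, 4.66 and 5.65 FPKM at day 0, to 2.93, 2.29 and 2.97 FPKM at day 4 and to 3.16, 3.81 and 3.1 FPKM at day 8. Lyz2 had the highest mean at day 0 (1.80 FPKM) and Cd68 at days 4 and 8 (1.30 and 1.49 FPKM). The defining markers Ptprc, Adgre1 and Itgam were at 0.04 FPKM or less in all samples, although Lyz2 and Aif1 fell early, from means of 1.80 and 1.69 FPKM to 0.40 and 0.62 FPKM. Lyz2 rose again late to 0.93 FPKM, the signs that Ptger4 and Ptgir showed, while Aif1 (0.583 FPKM at day 8) did not pass the late test and Csf1r, with means of 0.233, 0.380 and 0.333 FPKM, was not called. The 5 endothelial markers never exceeded 0.3 FPKM, but Pecam1, the only one tested, rose late, from a mean of 0.133 to 0.257 FPKM. Of the 5 mast cell markers Kit, Tpsb2 and Fcer1a were not listed and the others reached 0.07 FPKM at most. Among the 6 glial markers S100b rose early, to 6.42, 6.47 and 6.67 FPKM, with Sox10 at 0.04 FPKM or less and a summed level of 3.71, 4.18 and 3.71 FPKM at day 0, 7.27, 7.44 and 7.71 FPKM at day 4 and 5.98, 5.0 and 4.98 FPKM at day 8. The part of these markers' cells in the prostaglandin results was not tested.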

How the data were processed

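The 9 samples, 3 each from days 0, 4 and 8, were measured by RNA-seq. After removal of low-quality reads, the authors used HISAT/Bowtie2 for mapping and RSEM for quantification. The submitters' processing notes name CASAVA 1.4 and Bowtie2. The genome build, the strand of the libraries and other versions are not given in the sources used here. The deposited expected counts are not normalized, and 29.8% of them are not whole. The authors' FPKM values take account of gene length and depth.

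Members were taken by gene symbol. Expected counts, rounded to whole numbers, were tested with edgeR 4.0.16 in R 4.3.3 (filterByExpr, TMM factors, quasi-likelihood test, 1 model with a coefficient per day), and 13154 of 19094 genes passed the filter. Benjamini-Hochberg adjustment covered all tested genes, and calls needed an adjusted p under 0.05 with more than a 2-fold change. The standard error is the log2 fold change divided by the square root of F. The shares of transcripts were compared by exact permutation tests in scipy 1.17.1. Steps were tested on simulated data. All 10 members, every other pathway gene called in at least 1 comparison and the 5 genes nearest to Ptgs1 and Ptgs2 are named. The members and lists were chosen with earlier results of these data known. Promoter sequences and gene positions are those of RefSeq (GRCm38.p6), and 19040 gene IDs matched its gene table. Overlapping exons and shared transcript stretches were taken from the GENCODE vM21 annotation and transcripts.

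Alternatives were DESeq2 1.42.0 (Wald test), the exact test of edgeR, limma 3.58.1 on log2(FPKM + 1) and log2(FPKM + 0.1), other scaling factors and filters, p alone as the threshold, a separate model per comparison, the replicate number as a block, and each sample left out in turn. Of the genes examined, 1 is left unnamed and its values are not reported here. No pair of replicates was close enough to count as 1 sample.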

Additional observations from a re-analysis of the deposited data

How the results depend on the processing

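All member calls of the early and late phases held under all alternatives that tested the gene. Of 597 alternative values for members 592 kept direction and call, and of 1055 for the other pathway genes named 1014 did, while 29 lost and 8 gained a call. Depth limits Ptgds at day 0, Hpgd, Pla2g4c, Ptgs2os and the later days of Ptgs2os2, which rest on few counts. With at least 10 counts in every sample Ptgds was not tested, which left 1 member rising over the whole process and 0 falling in the late phase. That filter called 831 genes up early, and 310 up and 173 down late, with 2, 0 and 1 pathway genes down in the early, late and whole comparisons. With limma on log2(FPKM + 1) Ptgds over the whole process was 0.63 (adjusted p = 0.00053), leaving 1 member up, with 708 genes up and 565 down early, 224 and 136 late, 753 and 528 over the whole process, 7 pathway genes up and 2 down early, 0 down late and 1 down over the whole process. With no filter 5 pathway genes fell late. By adjusted p alone 4676 genes were higher and 4430 lower early, 2964 and 2989 late, 4583 and 4756 over the whole process, with 9 pathway genes lower early, 9 higher and 5 lower late and 10 lower over the whole process, and 5 members higher and 2 lower late and 5 and 5 over the whole process. From expected counts the Ptgs2 share was 18.7%, 2.15% and 2.25%.

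Uncalled late values changed sign for Ptges2 (-0.0159 by library size, -0.0153 and -0.0149 with limma on log2(FPKM + 0.1) and log2(FPKM + 1)), for Ptges3 without day 4 replicate 3, for Pla2g12a without day 4 replicate 1 and for Alox5ap without day 4 replicate 2 or day 8 replicate 1, and so did the early value of Pla2g4c without day 4 replicate 1. Over the samples left out, the late values ranged from -0.0754 to 0.0249 for Ptges3 and from -0.0276 to 0.1693 for Pla2g12a. Those of Alox5ap ranged from -0.3218 to 0.15, and the early values of Pla2g4c from -0.0055 to 0.4142. The cause was not tested. Library size alone moved the median of all genes over the whole process from -0.02 to -0.13.

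Leaving out each sample in turn gave 1262 to 1347 genes up and 1036 to 1154 down early, 548 to 589 and 345 to 394 late and 1376 to 1417 and 1014 to 1076 over the whole process, with pathway counts of 10 to 11 and 4 to 5, 3 to 4 and 2 to 3, and 10 to 11 and 5 to 6. The member counts did not move. Hpgd was called over the whole process only without day 0 replicate 3 (4.12, adjusted p = 0.034).

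Same-numbered samples deviated together little, with correlations from -0.0348 to 0.0750 and a mean of 0.0307, against -0.0154 for other numbers. On both other days, 4 of the 9 samples were closest to their own number. The numbers were not used as pairs in the main model. With the replicate block 1287 genes rose and 1053 fell early, 556 and 367 late and 1360 and 1010 over the whole process, and the 3 and 4, 1 and 1, and 2 and 3 members called up and down stayed as counted.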

Other observations

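The lipoxygenase and epoxide branches, which use the same arachidonic acid, were not described above. Of 6 tested genes 2 rose and 1 fell in the early phase, when 9.77% of all tested genes rose and 7.98% fell. Ltc4s, leukotriene C4 synthase, had 6.81, 6.55 and 6.82 FPKM at day 0, 21.4, 27.33 and 30.02 FPKM at day 4 and 57.12, 70.34 and 71.0 FPKM at day 8. It rose in both steps with no overlap between days (log2 fold change 2.02, standard error 0.14, edgeR adjusted p = 2.3e-09 early, and 1.38, standard error 0.11, adjusted p = 2.9e-08 late), although 26.4% of its exon bases lie opposite another gene. Ephx2, the soluble epoxide hydrolase that removes epoxides of arachidonic acid, had 3.46, 3.36 and 4.01 FPKM at day 0, 16.08, 19.28 and 20.69 FPKM at day 4 and 31.01, 30.62 and 30.34 FPKM at day 8, an early rise of 2.43 on the log2 scale (standard error 0.10, edgeR adjusted p = 2.2e-12). Alox5ap, the partner protein of 5-lipoxygenase, fell early from 2.07 ± 0.252 FPKM to 0.637 ± 0.165 FPKM (SD, n = 3), with 13.3% of its exon bases opposite another gene, while Alox5 itself was at or under 3 counts in all 9 samples. Alox8 fell late (log2 fold change -1.24, edgeR adjusted p = 0.014) and Aloxe3 over the whole process (-1.95, adjusted p = 0.0077), both at 0.3 FPKM or less. In limma on log2(FPKM + 1) the values of Alox5ap, Alox8 and Aloxe3 were -0.91, -0.16 and -0.24 and all within 2-fold. The late Alox8 call was also lost in DESeq2 (adjusted p = 0.064), in limma on log2(FPKM + 0.1) (-0.75) and without day 8 replicate 3 (edgeR adjusted p = 0.065), and Aloxe3 moved to -2.89 without day 8 replicate 1.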
